A study of Mus musculus with 8 samples.

Results

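Collagens and laminins are the chains from which most of the extracellular matrix beneath and around the airway epithelium is built. Their genes were taken as every row of the deposited gene table whose symbol is Col, a number, a and a number, or Lam, the letter a, b or c, and a digit, which gave 55 of 25124 symbols. Fibrillar collagens (types I, III and V and their relatives) assemble into the cross-striated fibres of interstitial tissue and are classically made by fibroblasts. Type IV collagen and the laminins, heterotrimers of an alpha, a beta and a gamma chain, form the sheet-like networks of basement membranes, to which epithelial, endothelial and muscle cells all contribute. Subepithelial collagen deposition is a known feature of allergic airway disease, and these classes are therefore set against each other here: 11 fibrillar chains against 17 basement membrane chains (6 of type IV collagen and 11 laminins).

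The series holds RNA-seq of flow-sorted mouse airway epithelial cells, from C57BL/6 lung. There were 4 groups of 2 libraries: STAT3-WT mice given house dust mite allergen (WT HDM), STAT3-cKO mice given HDM (cKO HDM), STAT3-WT mice given PBS (WT PBS) and STAT3-cKO mice given PBS (cKO PBS). STAT3 is a transcription factor activated by IL-6 family cytokines, cKO stands for conditional knockout, and PBS is the saline control. Not given in the sources used here are the promoter that drives the deletion, the allergen schedule, the ages and the sex. Since no label ties a library to an animal of its own, each p-value reflects only how far these libraries spread, which may be technical.

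Levels are normalized counts, the read counts as scaled by the authors, and pairs of values are given in the order of replicate 1 and 2. Differences are on the log2(normalized counts + 1) scale, ± the standard error of limma, a linear model fitted to all tested genes, and a gene passed at an adjusted p under 0.05. Depth was low, at 232556 to 593200 reads per library, so that a gene with 0 reads could still stand at up to 1.96 to 4.88 normalized counts (3 reads, counting error only). The second WT HDM library and the first cKO PBS library stood apart on the first principal component, at -63.4 and 93.7 against -26.3 to 8.05 for the 6 other libraries. Stat3, the targeted gene, read 134 and 157 normalized counts in WT HDM and 76.9 and 92.2 in the cKO libraries under HDM, and 75.8 and 40.9 in WT PBS with 56.9 and 96.5 in cKO PBS. Its cKO minus WT difference was -0.78 ± 0.39 log2 units under HDM (limma adjusted p = 0.549) and 0.41 ± 0.39 under PBS (limma adjusted p = 0.845), so the genotype is given here as labelled. The epithelial marker Epcam was present in every library, at 99.7 to 179 normalized counts, as were all 6 pan-epithelial markers. Fn1, which encodes fibronectin, a matrix glycoprotein outside the chain families, rose with HDM in both genotypes, by 3.47 ± 0.52 log2 units in WT (limma adjusted p = 0.0041) and 3.57 ± 0.52 in cKO (limma adjusted p = 0.0128). Without WT HDM 1, WT HDM 2 or WT PBS 1 the WT adjusted p of Fn1 was 0.0579, 0.0717 or 0.113, and without WT HDM 1, cKO HDM 1 or cKO HDM 2 the cKO adjusted p was 0.103, 0.285 or 0.272. The cKO call of Fn1 also ended with a pseudocount of 0.2 (limma adjusted p = 0.0664), with no filter on low values (0.0943) and in a fit of only the groups compared (0.338).

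Of the 55 chains, 20 averaged 10 or more normalized counts across all libraries and entered the test: 3 of 11 fibrillar, 4 of 6 type IV, 8 of 11 laminin, 2 of 6 type VI, 1 of 9 FACIT (fibril-associated), 1 of 3 short chain and 1 of 4 transmembrane chains. The 3 basement membrane zone collagens and the 2 unclassified ones all lay below that level. Just above it stood Lama3 at 11.3 and Col14a1 at 12.9, and just below it Col8a1 at 8.22 and Col5a2 at 7.55. A chain that is high in one group only can pass such a mean through that group, so the tested chains are not a sample of all 55.

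Both type I chains and the single type III chain had the highest normalized counts of all chains in WT HDM and were low everywhere else. Col1a1 encodes the alpha 1 chain of type I collagen (mm10 chromosome 11, 94936224 to 94953042, plus strand). It stood at 15.3 and 31.8 normalized counts in WT PBS, 323 and 232 in WT HDM, 9.76 and 7.62 in cKO PBS and 22.5 and 22.4 in cKO HDM. Col1a2, its alpha 2 partner (chromosome 6, 4504814 to 4541544, plus strand), read 8.42 and 20.9 in WT PBS, 282 and 378 in WT HDM, 0 and 8.89 in cKO PBS and 9.43 and 15.8 in cKO HDM. Both WT HDM libraries lay above the 6 other libraries for each of these chains. Col3a1, whose product forms the homotrimeric type III collagen (chromosome 1, 45311538 to 45349706, plus strand), read 29.1 and 20.9 in WT PBS, 461 and 500 in WT HDM, 16.3 and 38.1 in cKO PBS and 59.5 and 44.9 in cKO HDM. The lower WT HDM value of Col3a1 was thus several times the highest value of any other library.

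With HDM in WT, Col3a1 rose by 4.23 ± 0.43 log2 units (SE, limma adjusted p = 2.4e-04), Col1a1 by 3.57 ± 0.52 (adjusted p = 0.00379) and Col1a2 by 4.51 ± 0.90 (adjusted p = 0.0403). At an unadjusted limma p under 0.05 there were 10 of the 20 tested chains, beside 8.93% of all genes. In that comparison 0.506% of all genes tested passed as higher (38 of 7512) and 0.0133% as lower. Here 4 of the 20 tested chains passed, all higher: these 3 and Col4a2. Leaving out one library ended the Col1a1 call for WT HDM 1 (limma adjusted p = 0.0632), WT HDM 2 (0.0729) or WT PBS 1 (0.135). The Col1a2 call ended without WT HDM 1 (limma adjusted p = 0.129), WT HDM 2 (0.567), cKO HDM 1 (0.0799), cKO HDM 2 (0.0774), WT PBS 1 (0.436) or WT PBS 2 (0.162), with a pseudocount of 0.2 (0.33), with no filter on low values (0.183) and, just above the threshold, with a minimum mean of 50 (0.05 after rounding), while the Col3a1 rise passed in all 21 alternative analyses, at 4.0 to 4.46 log2 units.

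The promoter windows of Col1a2 and Col3a1 are shown because these fibrillar chains were high in the same 2 libraries, and that of Col8a2 because it had the opposite pattern. They are RefSeq windows on GRCm38.p6 (mm10), each from 250 bases before to 50 bases after the annotated start. Capitals mark matches to CCAAT, to the GC box GGGCGG, to CACCC and to TATAAA, on either strand, so that some capitals are the reverse complement. CACCC and GGGCGG matches can overlap each other.
Col1a2, chr6:4505368-4505667, plus strand: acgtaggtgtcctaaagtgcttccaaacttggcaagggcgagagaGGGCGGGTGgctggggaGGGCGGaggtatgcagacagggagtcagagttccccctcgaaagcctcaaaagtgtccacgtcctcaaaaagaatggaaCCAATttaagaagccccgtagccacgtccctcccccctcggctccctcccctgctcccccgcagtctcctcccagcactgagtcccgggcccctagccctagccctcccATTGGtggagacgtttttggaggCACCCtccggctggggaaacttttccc
Col3a1, chr1:45311288-45311587, plus strand: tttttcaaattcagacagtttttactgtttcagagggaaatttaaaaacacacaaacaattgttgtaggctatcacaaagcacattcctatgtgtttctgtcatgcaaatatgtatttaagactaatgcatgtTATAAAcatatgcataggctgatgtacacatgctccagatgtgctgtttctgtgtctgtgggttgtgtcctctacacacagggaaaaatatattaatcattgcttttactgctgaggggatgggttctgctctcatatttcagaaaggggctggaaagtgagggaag
Col8a2, chr4:126286544-126286843, plus strand: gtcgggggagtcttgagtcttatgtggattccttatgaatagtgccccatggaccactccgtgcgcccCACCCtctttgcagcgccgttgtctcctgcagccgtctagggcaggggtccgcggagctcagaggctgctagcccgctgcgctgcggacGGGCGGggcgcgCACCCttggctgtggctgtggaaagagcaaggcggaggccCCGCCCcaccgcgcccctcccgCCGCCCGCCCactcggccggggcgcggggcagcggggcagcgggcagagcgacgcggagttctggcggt
The Col1a2 window holds CCAAT on both strands, GC boxes and CACCC, the Col3a1 window holds only TATAAA, and the Col8a2 window holds GC boxes and CACCC. Of the 55 chains, 40 had a window, 44 windows in all. GGGCGG was in 59.1% of these and in 35.7% of all 32851 windows of the same length, CACCC in 77.3% and 57.5%, CCAAT in 31.8% and 37.4%, and TATAAA in 11.4% and 13.6%. The 2 fibrillar windows thus had none of these motifs in common.

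**Figure D1:**
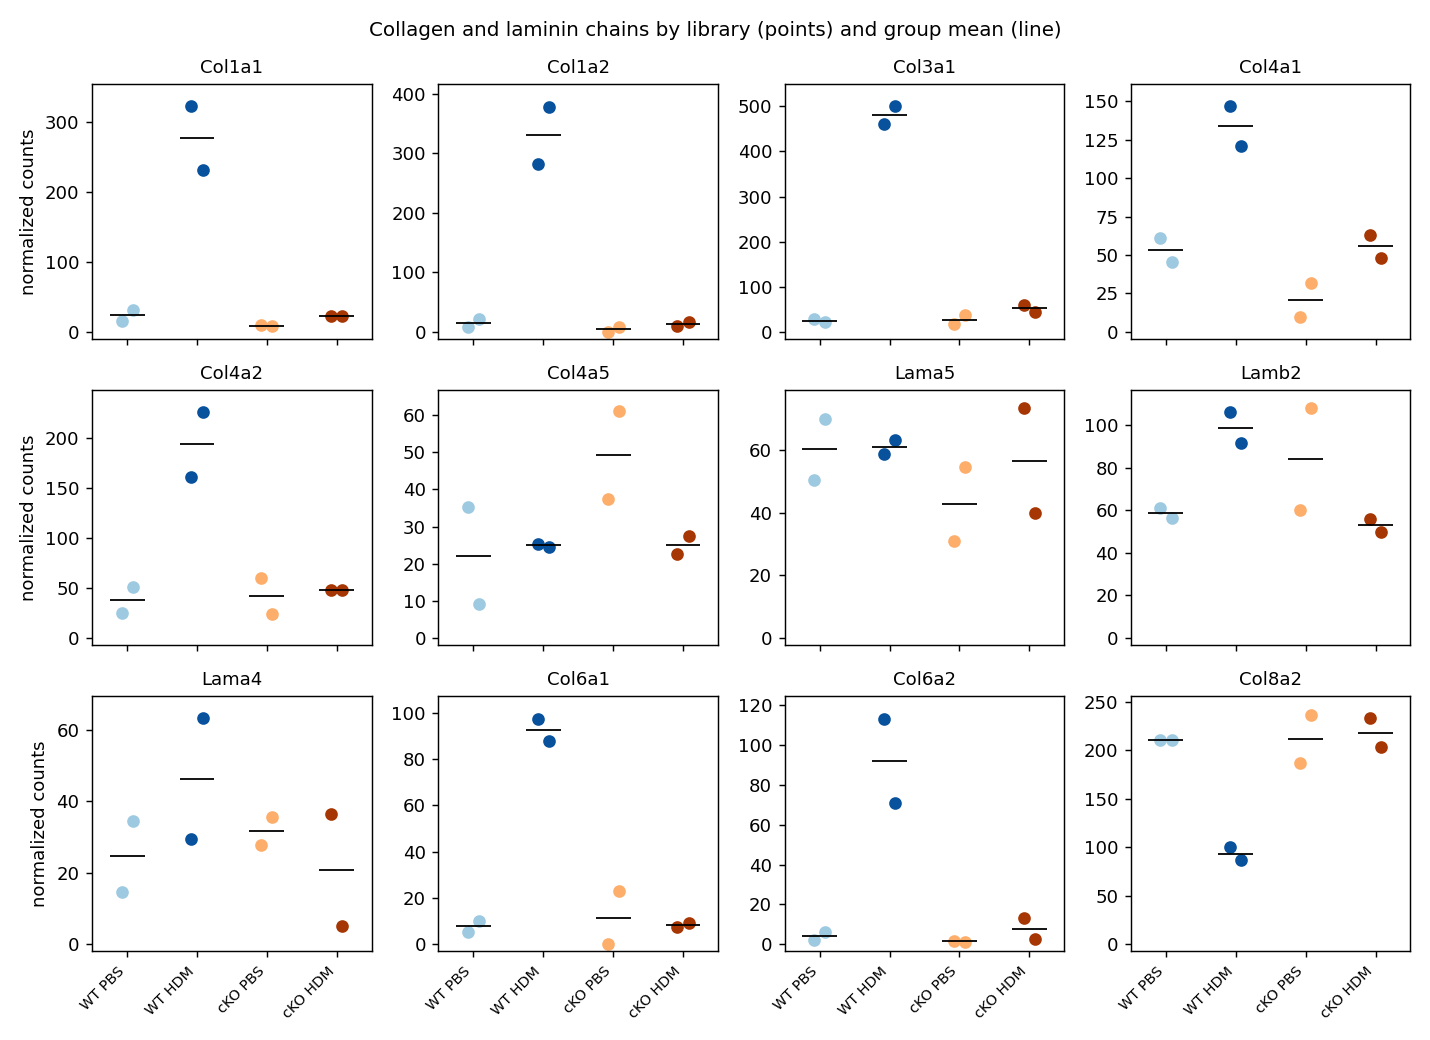
Normalized counts (vertical axis, linear, own scale per panel) of 12 chains in each library (points) with the group mean (line), for WT PBS, WT HDM, cKO PBS and cKO HDM. Both WT HDM points stand above all others for Col1a1, Col1a2, Col3a1, Col4a1, Col4a2, Col6a1 and Col6a2, and below all others for Col8a2. For Lamb2 they stand above WT PBS and cKO HDM but within cKO PBS. Both cKO PBS points stand above all others for Col4a5, and no group stands apart from all others for Lama4 or Lama5.

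The remaining fibrillar chains were low, and those with reads were highest in the same group. Col5a1, a type V chain that co-assembles with type I collagen, read 4.59 and 0 normalized counts in WT PBS, 21.5 and 23.2 in WT HDM, 0 in both cKO PBS libraries and 2.90 and 0 in cKO HDM. Col5a2, its type V partner, read 3.06 and 4.55 in WT PBS, 39.1 and 10.3 in WT HDM, 0 in both cKO PBS libraries and 0 and 3.32 in cKO HDM. The mean floor of 3 reads in cKO PBS was 4.34 normalized counts. The WT HDM mean was 5.15 times that floor for Col5a1 and 5.69 times for Col5a2, where the 2 WT HDM libraries differed widely. Col27a1, a fibrillar collagen of cartilage, was scattered, with 4.59 and 0 in WT PBS, 9.13 and 0 in WT HDM, 0 in both cKO PBS libraries and 7.98 and 0 in cKO HDM. Col2a1, Col11a1 and Col11a2, the fibrillar chains of cartilage, had 0 reads in every library, and Col5a3 and Col24a1 had reads in the first WT HDM library alone.

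Some chains that decorate or surround fibrils, Col6a1, Col6a2, Col6a3 and Col14a1, were also highest in both WT HDM libraries, at lower levels. Col6a1, which with Col6a2 and Col6a3 forms the beaded filaments of type VI collagen, read 5.36 and 10 normalized counts in WT PBS, 97.2 and 87.7 in WT HDM, 0 and 22.9 in cKO PBS and 7.26 and 9.14 in cKO HDM. Col6a2 read 2.30 and 6.37 in WT PBS, 113 and 70.9 in WT HDM, 1.63 and 1.27 in cKO PBS and 13.1 and 2.49 in cKO HDM. WT HDM overlapped no other group for either chain, yet neither passed with HDM in WT: the difference was 3.48 ± 1.17 log2 units for Col6a1 (limma adjusted p = 0.323) and 4.20 ± 1.15 for Col6a2 (limma adjusted p = 0.159). On recovered reads, edgeR passed Col6a2 (adjusted p = 0.0174), and DESeq2 passed both.

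Col6a3, the third type VI chain, lay below the tested level, with 0 reads in all 4 PBS libraries, 20.9 and 30.9 normalized counts in WT HDM and 3.63 and 0 in cKO HDM. Its WT HDM mean of 25.9 was 10.3 times the WT PBS floor of 2.51. Col14a1, a FACIT collagen that binds the fibril surface, read 0 and 4.55 in WT PBS, 36.5 and 43.8 in WT HDM, 0 in both cKO PBS libraries and 7.98 and 9.97 in cKO HDM. It was thus higher under HDM in both genotypes without overlap, but did not pass in either: 4.12 ± 1.64 log2 units in WT (limma adjusted p = 0.455) and 3.31 ± 1.64 in cKO (limma adjusted p = 0.647). Its cKO HDM mean of 8.97 was 2.07 times the cKO PBS floor.

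Among the 12 tested basement membrane chains, 1 passed with HDM in WT, the type IV chain Col4a2. Col4a2 (mm10 chromosome 8, 11312805 to 11449287, plus strand) encodes the alpha 2 chain that joins 2 alpha 1 chains in the ubiquitous type IV network. It read 25.3 and 50.9 normalized counts in WT PBS, 161 and 226 in WT HDM, 60.2 and 24.1 in cKO PBS and 47.9 and 48.2 in cKO HDM. It rose with HDM in WT by 2.38 ± 0.48 log2 units (limma adjusted p = 0.0403). This call ended without WT HDM 1 (limma adjusted p = 0.0828), WT HDM 2 (0.547), cKO HDM 1 (0.0885), cKO HDM 2 (0.0788), WT PBS 1 (0.493) or WT PBS 2 (0.0979), with a pseudocount of 0.2 (0.0997) and with no filter on low values (0.181). Col4a1, the alpha 1 chain (chromosome 8, 11198423 to 11312826, minus strand), read 61.2 and 45.5 in WT PBS, 147 and 121 in WT HDM, 9.76 and 31.7 in cKO PBS and 63.1 and 48.2 in cKO HDM. Its difference with HDM was 1.32 ± 0.50 in WT (limma adjusted p = 0.415) and 1.58 ± 0.50 in cKO (limma adjusted p = 0.465), and neither passed.

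The 2 genes lie head to head and share a promoter, with annotated starts 21 bases apart, so that only reads lying wholly within the short overlap of their annotated 5′ ends would need strand to be told apart. The Col4a1 window is shown, with the 78 bases that it shares with the Col4a2 window (chr8:11312777-11312854) in capitals.
Col4a1, chr8:11312777-11313076, minus strand: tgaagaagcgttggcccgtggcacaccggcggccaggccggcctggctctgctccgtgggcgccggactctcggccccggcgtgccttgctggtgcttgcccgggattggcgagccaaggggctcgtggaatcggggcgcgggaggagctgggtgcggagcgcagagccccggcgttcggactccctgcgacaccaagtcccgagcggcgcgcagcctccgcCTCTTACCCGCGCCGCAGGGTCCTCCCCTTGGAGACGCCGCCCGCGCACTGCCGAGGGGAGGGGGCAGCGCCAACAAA
Across libraries the pair did not keep one ratio: Col4a1 divided by Col4a2 was 2.42 and 0.893 in WT PBS, 0.911 and 0.537 in WT HDM, 0.162 and 1.32 in cKO PBS and 1.32 and 1.00 in cKO HDM. The ratio of the 2 type I chains, Col1a1 divided by Col1a2, was 1.82 and 1.52 in WT PBS, 1.15 and 0.614 in WT HDM and 2.38 and 1.42 in cKO HDM. Those ratios rest on few reads outside WT HDM.

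The X-linked type IV chains, which form the network that includes the alpha 5 and alpha 6 chains and lie 1343 bases apart head to head, did not have that profile. Col4a5 read 35.2 and 9.09 normalized counts in WT PBS, 25.4 and 24.5 in WT HDM, 37.4 and 61.0 in cKO PBS and 22.5 and 27.4 in cKO HDM. Both cKO PBS libraries stood above the 6 other libraries for Col4a5, which overlapped, and its HDM difference was 0.44 ± 0.64 log2 units in WT (limma adjusted p = 0.917). Col4a6 ranged from 7.74 to 35.2, both in WT HDM, and differed by -0.41 ± 0.76 with HDM in WT (limma adjusted p = 0.932). Col4a3 and Col4a4, the other 2 chains of type IV collagen, stayed below the tested level, at 0 to 14.0 and 0 to 9.97 per library.

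No laminin chain passed in any of the 5 comparisons, by limma, edgeR or DESeq2, and with HDM in WT 1 of the 8 tested had an unadjusted limma p under 0.05 (Lamb3), where 8.93% of all genes did. Lamb2, the beta 2 chain and the laminin gene with the highest mean over the 8 libraries, at 73.6 normalized counts, read 61.2 and 56.4 normalized counts in WT PBS, 106 and 91.5 in WT HDM, 60.2 and 108 in cKO PBS and 55.9 and 49.8 in cKO HDM. WT HDM lay above WT PBS and cKO HDM for Lamb2, but within the cKO PBS spread, and the HDM difference in WT was 0.73 ± 0.38 log2 units (limma adjusted p = 0.62). Lama5, the alpha chain of the main laminins under adult epithelia, read 50.5 and 70.0 in WT PBS, 58.7 and 63.2 in WT HDM, 30.9 and 54.6 in cKO PBS and 73.3 and 39.9 in cKO HDM. Its WT difference was 0.03 ± 0.45 log2 units, with a 95% interval of -0.93 to 0.99 (limma adjusted p = 0.993). Lama4, the alpha chain typical of endothelium and mesenchyme, read 14.5 and 34.6 in WT PBS, 29.3 and 63.2 in WT HDM, 27.7 and 35.6 in cKO PBS and 36.3 and 4.98 in cKO HDM, with overlap throughout.

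Lama3 and Lamb3 encode an alpha and a beta chain of the laminin that anchors epithelial hemidesmosomes, and their values did not run in parallel. Lamb3 read 6.89 and 0.909 normalized counts in WT PBS, 26.7 and 55.4 in WT HDM, 17.9 and 5.08 in cKO PBS and 24.7 and 9.14 in cKO HDM. Its WT difference of 3.35 ± 1.02 log2 units did not pass (limma adjusted p = 0.248). Lama3 (0 to 19.0 over the 8 libraries) differed by 0.21 ± 1.33 in the same comparison. Lamc1, the gamma chain of most laminins, differed by 0.87 ± 0.65 and Lamb1 by -0.34 ± 1.11. Lamc3 had 3.26 and 11.6 in WT HDM and 0 reads in the 6 other libraries. Its WT HDM mean was 2.96 times the WT PBS floor of 2.51, and its first WT HDM value lay near that floor. Lama2, the muscle laminin chain, ranged from 0 to 9.13, and Lama1 had reads in the first WT HDM library alone.

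One collagen had the reverse profile. Col8a2, the alpha 2 chain of the short chain type VIII collagen (chromosome 4, 126286793 to 126314330, plus strand), read 210 normalized counts in each WT PBS library, 100 and 86.4 in WT HDM, 187 and 236 in cKO PBS and 233 and 203 in cKO HDM. Both WT HDM libraries were below the 6 other libraries, as they were for 6.16% of all genes tested. The WT difference of -1.16 ± 0.27 log2 units missed the threshold (limma adjusted p = 0.0838). On recovered reads it did not pass by edgeR, and DESeq2 gave an adjusted p of 0.0115. Its partner Col8a1 showed no such pattern, at 15.7 and 5.16 in WT HDM and 3.32 to 13 in the 6 other libraries. Col23a1, a transmembrane collagen, read 75.0 and 45.5 in WT PBS and 43.7 and 19.3 in WT HDM, a difference of -0.98 ± 0.51 that did not pass (limma adjusted p = 0.619). Col17a1, the hemidesmosomal collagen of basal cells, had at most 6.45 in any library.

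**Figure D2:**
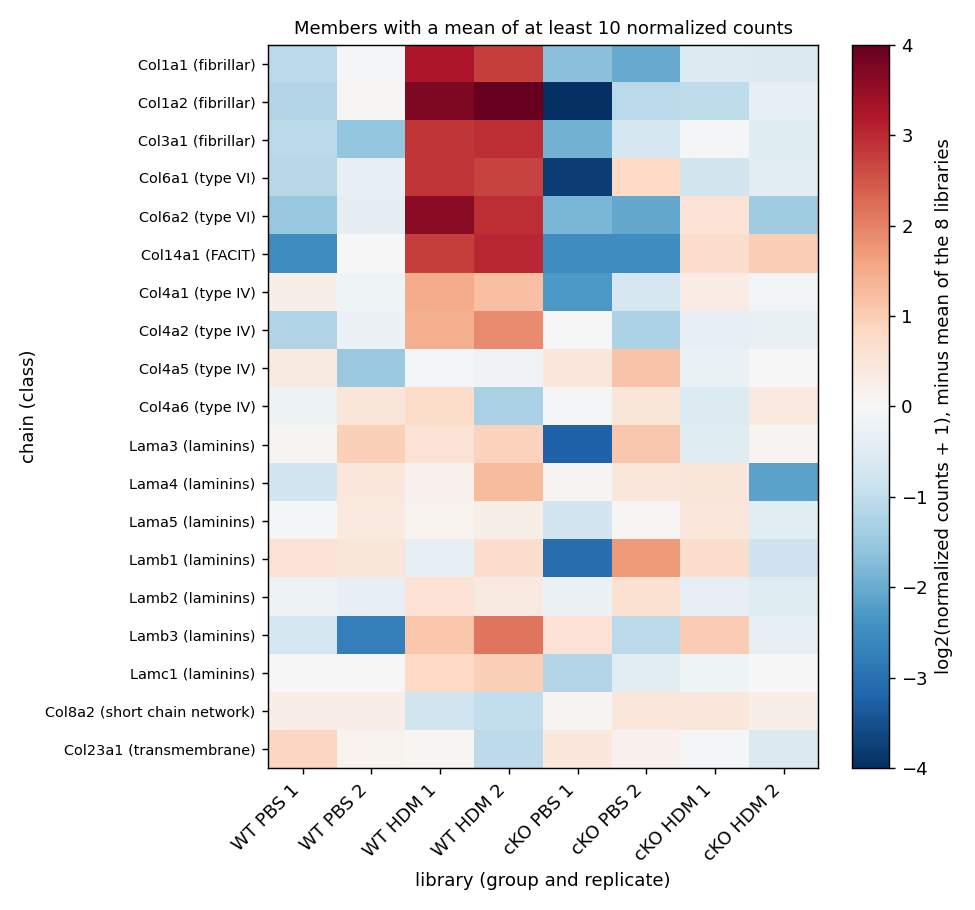
Each row is 1 of 19 tested chains with its class, each column 1 library, and the colour is log2(normalized counts + 1) minus the chain's mean over the 8 libraries (red higher, blue lower). The fibrillar, type VI and FACIT rows are red in both WT HDM columns, the laminin rows are mixed, and Col8a2 is blue in both.

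Set against each other, the classes differed in size of response and in rank of abundance. Normalized counts of the 11 fibrillar genes summed to 71.6 ± 9.29 (SD, n = 2) in WT PBS and 1143 ± 1.17 in WT HDM, a 16.0-fold ratio, while those of the 17 basement membrane genes summed to 393 ± 26.6 and 753 ± 49.3, a 1.92-fold ratio. In the cKO groups the fibrillar sums were 94.3 ± 11.3 with HDM and 40.3 ± 20.2 with PBS (2.34-fold), and the basement membrane sums 374 ± 73.3 and 399 ± 127 (0.938-fold). Within the basement membrane class, type IV collagen went from 145 ± 1.24 to 380 ± 1.01 in WT (2.63-fold) and the laminins from 249 ± 27.9 to 373 ± 48.3 (1.5-fold). The 6 type VI genes, in neither class, went from a low 12.4 ± 5.62 to 219 ± 39.4 in WT (17.6-fold). They summed to 18.9 ± 10.3 in cKO HDM. A ratio as large as the fibrillar one was thus not particular to the fibrillar chains. Fibrillar reads made up 61.4% (exact Clopper-Pearson 95% interval 59.6% to 63.2%) and 59.2% (56.7% to 61.7%) of the reads of both classes in WT HDM. That share was 14.8% and 16.0% in WT PBS, 7.77% and 10% in cKO PBS and 19.4% and 21.1% in cKO HDM. The WT HDM libraries were therefore the only 2 in which fibrillar reads outnumbered basement membrane reads.

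By gene, the median WT difference was 4.23 log2 units for the 3 tested fibrillar chains and 0.59 for the 12 tested basement membrane chains, beside -0.03 for all 7512 genes. All 3 fibrillar chains passed and 1 of 12 basement membrane chains did. Both WT HDM libraries lay above both WT PBS libraries for 11 of 20 tested chains (3 of 3 fibrillar, 5 of 12 basement membrane), where 21.2% of all genes did. They lay above the 6 other libraries for 10 of 20, where 8.99% of all genes did. These are descriptions, since the classes were set side by side with results of these data known. Col6a1, Col6a2 and Col14a1 averaged under 10 normalized counts over the 6 other libraries. They thus entered the test through WT HDM, which raises every count of tested chains high in WT HDM.

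**Figure D3:**
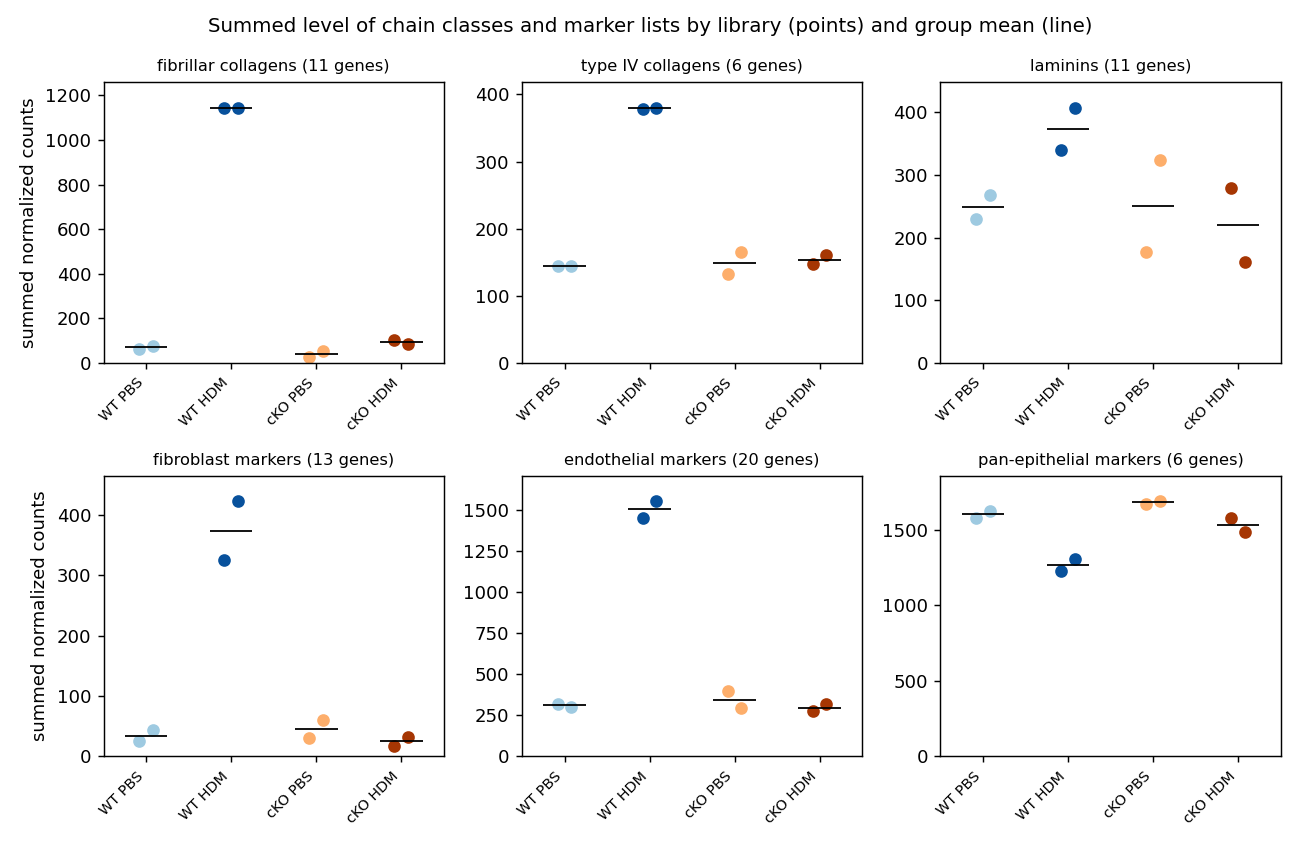
Summed normalized counts (vertical axis, from 0) of 3 chain classes and 3 marker lists per library (points) with the group mean (line). Fibrillar collagens, type IV collagens, laminins, fibroblast markers and endothelial markers are highest in both WT HDM libraries, and pan-epithelial markers are lowest there. The laminins stand least apart, at 373 ± 48.3 in WT HDM and 251 ± 104 in cKO PBS (SD, n = 2).

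Divided by exon length, which allows genes to be compared, the order of the chains changed in WT HDM. In WT PBS the highest chain was Col8a2, at 46.8 ± 0.0518 normalized counts per kb (SD, n = 2), followed by Col23a1 at 10.5 ± 3.64, Lamb2 at 9.67 ± 0.565, Col4a1 at 7.15 ± 1.49 and Col4a2 at 5.75 ± 2.74. Col8a2 also led in cKO PBS, at 47.1 ± 7.74 per kb, and in cKO HDM, at 48.5 ± 4.77. In WT HDM the order was Col3a1 at 49.0 ± 2.82 per kb, Col1a1 at 42.3 ± 9.78, Col4a2 at 29.2 ± 6.89, Col1a2 at 26.5 ± 5.46, Col6a1 at 21.1 ± 1.53 and Col8a2 at 20.8 ± 2.21. Col3a1 and Col1a1 did not differ beyond their spread, nor did Col4a2 and Col1a2, or Col6a1 and Col8a2. Lengths are unions of all annotated GENCODE exons, which can exceed the transcript made in these cells.

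In the libraries labelled cKO, HDM changed no chain past the threshold. Col1a1 differed by 1.28 ± 0.52 log2 units (limma adjusted p = 0.567), Col1a2 by 2.07 ± 0.90 (0.588) and Col3a1 by 1.02 ± 0.43 (0.573), all 3 with both cKO HDM libraries above both cKO PBS libraries. Such separation was seen for 7 of 20 tested chains (3 of 3 fibrillar and 2 of 12 basement membrane), and for 19.0% of all genes. Among all genes 0.0532% passed (4 of 7512), and 0 of 20 chains did, by limma and also by edgeR and DESeq2. At an unadjusted limma p under 0.05 there were 4 of the 20 chains, beside 7.77% of all genes. The median difference was 1.28 for the fibrillar chains, 0.36 for the basement membrane chains and 0.10 for all genes. Without cKO PBS 2 the difference was 2.38 log2 units for Col4a1 and 1.61 for Col3a1, with 1 cKO PBS library left.

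**Figure D4:**
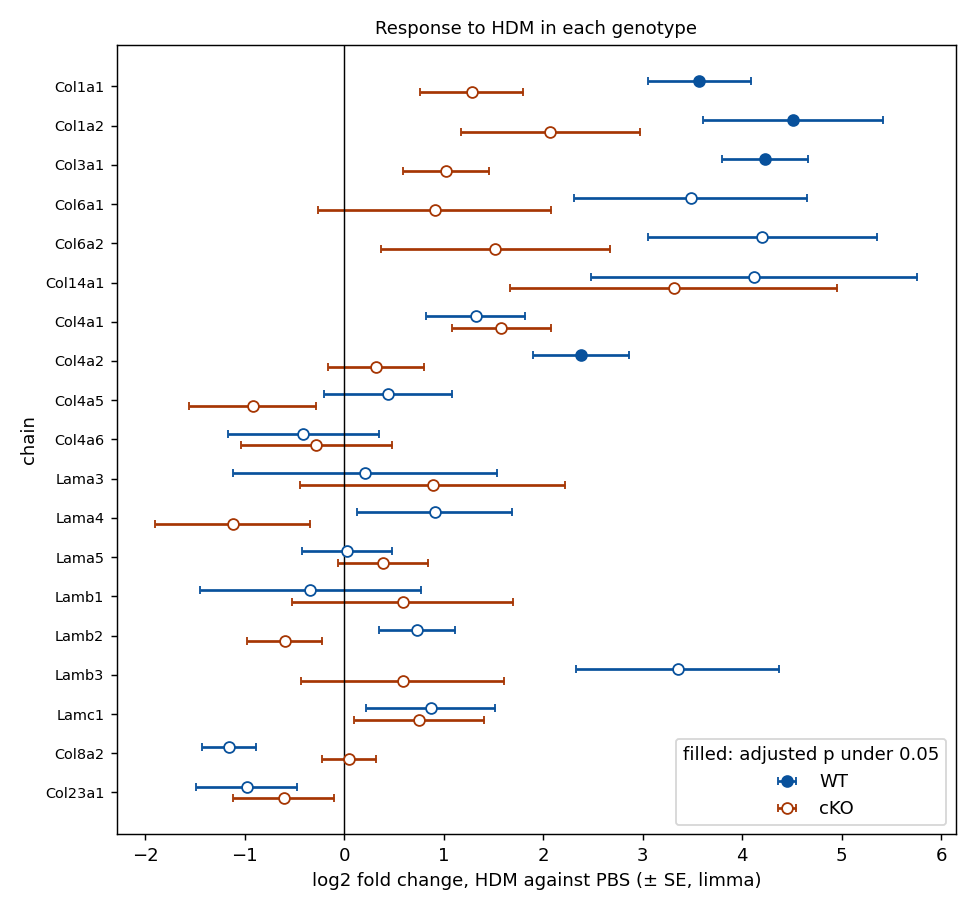
Log2 fold change of HDM against PBS (horizontal axis, ± SE from limma) for 19 of the 20 tested chains in WT (blue) and cKO (brown), with filled points for an adjusted p under 0.05. Filled points are the WT values of Col1a1, Col1a2, Col3a1 and Col4a2, and no cKO point is filled.

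Between genotypes under HDM, the same 3 fibrillar chains were lower in the cKO libraries. This comparison and the WT response share the WT HDM libraries, so they are not independent of each other. The cKO minus WT difference was -3.55 ± 0.52 log2 units for Col1a1 (limma adjusted p = 0.00462), -4.63 ± 0.90 for Col1a2 (adjusted p = 0.0267) and -3.19 ± 0.43 for Col3a1 (adjusted p = 0.0028). Among all genes 0.519% passed as lower in cKO and 0.0532% as higher, and of the 20 chains 3 passed as lower and 0 as higher. At an unadjusted limma p under 0.05 were 9 of the 20 chains, beside 9.60% of all genes. The median was -3.55 for fibrillar chains, -0.91 for basement membrane chains and 0.02 for all genes. Both cKO HDM libraries lay below both WT HDM libraries for 12 of 20 chains (3 of 3 fibrillar, 6 of 12 basement membrane), and for 21.9% of all genes. Among these 12 are Col6a1, Col6a2 and Col14a1, which entered the test through WT HDM.

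These calls depended on single libraries, and that of Col1a2 also on the pseudocount and the filter. Without WT HDM 2 or cKO HDM 2 the Col3a1 adjusted p was 0.108 or 0.065 (limma). The Col1a1 call ended without WT HDM 1 (limma adjusted p = 0.0551), WT HDM 2 (0.108), cKO HDM 1 (0.0667) or cKO HDM 2 (0.0669). The Col1a2 call ended without WT HDM 1 (limma adjusted p = 0.107), WT HDM 2 (0.488), cKO HDM 1 (0.331), cKO HDM 2 (0.171), WT PBS 1 (0.0619) or WT PBS 2 (0.075), with a pseudocount of 0.2 (0.26) and with no filter on low values (0.17). Direction stayed negative in all 21 alternatives for each of the 3.

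Col4a2 and Col8a2 came nearest to the threshold under HDM without passing. The difference was -1.97 ± 0.48 log2 units for Col4a2 (limma adjusted p = 0.0969) and 1.21 ± 0.27, higher in cKO, for Col8a2 (limma adjusted p = 0.0638). Col4a1 differed by -1.26 ± 0.50 (limma adjusted p = 0.425), Col6a1 by -3.35 ± 1.17 (0.328) and Col6a2 by -3.69 ± 1.15 (0.227). The 8 tested laminin chains all had negative differences, from -0.17 ± 0.45 for Lama5 to -1.56 ± 0.78 for Lama4, and none passed. Of all 7512 genes 3694 had a negative difference, and the signs of the chains share the same libraries.

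Without allergen the genotypes were not distinguished: 0 of 20 chains passed, as did 0% of all genes, by limma, edgeR and DESeq2. At an unadjusted limma p under 0.05 there were 3 of the 20 chains, beside 6.96% of all genes: Col1a1 at -1.26 ± 0.52 log2 units, Col1a2 at -2.19 ± 0.90 and Col4a1 at -1.52 ± 0.50. Without cKO PBS 2 the difference was -3.84 log2 units for Col1a2, -3.53 for Lamb1 and -2.32 for Col4a1. That leaves the first cKO PBS library, the shallowest of the 8, alone in its group.

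Whether the HDM response differed by genotype was tested as an interaction, cKO response minus WT response. None of the 20 chains passed, and 0.0266% of all genes did. The nearest was Col3a1, at -3.21 ± 0.61 log2 units (limma unadjusted p = 9.9e-05, adjusted p = 0.14), and on recovered reads it passed by edgeR (adjusted p = 0.0206) and DESeq2 (adjusted p = 1.9e-05). Col1a1 stood at -2.28 ± 0.74 (limma adjusted p = 0.485), Col1a2 at -2.44 ± 1.28 (0.67), Col4a2 at -2.05 ± 0.68 (0.501) and Col8a2 at 1.21 ± 0.38 (0.485). Col4a1 stood at 0.26 ± 0.71, with a 95% interval of -1.25 to 1.77 (limma adjusted p = 0.939). At an unadjusted limma p under 0.05 there were 5 of the 20 chains, beside 7.77% of all genes. The medians were -2.44 for fibrillar chains, -0.02 for basement membrane chains and 0.16 for all genes. Leaving out cKO PBS 1 or cKO PBS 2 brought the Col3a1 interaction to -3.80 or -2.62 log2 units.

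Genes that make, process or receive these chains were followed as 4 lists. Among all genes tested 0.506% passed as higher with HDM in WT. In the folding and modification list 8 of 16 genes were tested and 1 rose with HDM in WT: Serpinh1, the collagen chaperone HSP47, by 2.37 ± 0.48 log2 units (limma adjusted p = 0.0403), from 15.3 and 11.8 normalized counts in WT PBS to 75.0 and 72.2 in WT HDM. Serpinh1 was also at 95.1 and 53.2 in cKO HDM, against 26.0 and 33.0 in cKO PBS, and its genotype difference under HDM was -0.05 ± 0.48 (limma adjusted p = 0.988). The Serpinh1 call ended without WT HDM 1 (limma adjusted p = 0.11), WT HDM 2 (0.369), cKO HDM 1 (0.089), cKO HDM 2 (0.0757), WT PBS 1 (0.266) or WT PBS 2 (0.293), with a pseudocount of 0.2 (0.081) and with no filter on low values (0.155). The most abundant member, the prolyl hydroxylase subunit P4hb, differed by -0.18 ± 0.26 in WT (limma adjusted p = 0.917), and the list median was 0.26.

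Among 12 other basement membrane components, 7 were tested and 1 rose with HDM in WT, where 0.506% of all genes did. This was Sparc, a collagen-binding matricellular protein, which read 14.5 and 5.46 normalized counts in WT PBS, 208 and 220 in WT HDM, 0 and 5.08 in cKO PBS and 27.6 and 34.1 in cKO HDM. Sparc rose by 4.42 ± 0.83 log2 units (limma adjusted p = 0.0251), a call that ended without WT HDM 1 (limma adjusted p = 0.118), WT HDM 2 (0.446), cKO HDM 1 (0.0717), cKO HDM 2 (0.0757), WT PBS 1 (0.166) or WT PBS 2 (0.276), with a pseudocount of 0.2 (0.262), with no filter on low values (0.155) and with a minimum mean of 50 (0.0623). The median of the list was 1.31, above that of the type IV and laminin chains themselves. All 7 differences were positive, as were those of 3645 of all 7512 genes. Npnt, nephronectin, differed by 1.78 ± 0.72 (limma adjusted p = 0.469) and Agrn, agrin, by 1.03 ± 0.83 (limma adjusted p = 0.806).

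Of 15 cleavage and crosslinking genes 4 were tested and 0 passed in WT by limma, where 0.506% of all genes passed as higher. An unadjusted limma p under 0.05 was seen for 2 of the 4, beside 8.93% of all genes. The WT difference was 1.03 ± 0.40 log2 units for the transglutaminase Tgm2 (limma adjusted p = 0.438) and 2.23 ± 0.82 for Pxdn, the peroxidase that crosslinks type IV collagen (limma adjusted p = 0.378). The lysyl oxidase Loxl1 lay below the tested level, with 13.7 and 25.8 normalized counts in WT HDM and 0 to 7.27 in the 6 other libraries. Of 17 collagen and laminin receptors 11 were tested and 0 passed in WT by limma, with a median of 0.14. An unadjusted limma p under 0.05 was seen for 2 of the 11, beside the same 8.93% of all genes. Sdc1, syndecan 1, differed by -0.16 ± 0.27 (limma adjusted p = 0.929) and the integrin beta 1 gene Itgb1 by 0.25 ± 0.32 (limma adjusted p = 0.898). In the 4 other comparisons no gene of these 4 lists passed by limma. There 0 to 3 genes per list and comparison had an unadjusted limma p under 0.05, beside 6.96% to 9.60% of all genes.

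Fibroblast, endothelial, smooth muscle, leukocyte and erythroid markers were also highest in both WT HDM libraries. Mesothelial markers overlapped, at 55.1 ± 5.04 in WT HDM and 49.7 ± 24.9 in WT PBS (SD, n = 2). The 13 fibroblast markers, none of them a collagen, summed to 25.3 and 43.6 normalized counts in WT PBS, 325 and 423 in WT HDM, 30.9 and 59.7 in cKO PBS and 17.4 and 32.4 in cKO HDM. In cKO the HDM to PBS ratio of their mean sums was 0.550, where that of the fibrillar chains was 2.34. Of these 0 and 3 were at 0 reads in the 2 WT HDM libraries and 6 to 10 in the 6 other libraries. All 5 that were tested had positive WT differences, as did 3645 of all 7512 genes, and Bgn, the proteoglycan biglycan, passed. Defining markers were uneven in WT HDM: Pdgfra read 40.4 and 28.4 and Dcn 40.4 and 69.6, while Pdgfrb read 11.7 and 0 and Lum 1.96 and 0. Fibrillar counts divided by fibroblast marker counts gave 2.58 and 1.79 in WT PBS, 3.52 and 2.70 in WT HDM, 0.842 and 0.915 in cKO PBS and 5.87 and 2.67 in cKO HDM. The part of these markers in the collagen differences was not tested, and in bulk RNA fewer cells of a type cannot be told apart from less RNA per cell.

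Endothelial and smooth muscle markers were highest in the WT HDM libraries as well. The 20 endothelial markers, of cells that make type IV collagen and laminins, summed to 1454 and 1556 in WT HDM and 274 to 397 in the 6 other libraries, where 2 to 6 of them were at 0 against 0 and 2 in WT HDM, and in cKO their HDM to PBS ratio was 0.854. The 6 smooth muscle markers summed to 78.3 and 119 in WT HDM and 0 to 13.8 elsewhere, with none at 0 reads in WT HDM and 3 to 6 elsewhere. In cKO the mean sums of the smooth muscle markers were 12.3 ± 2.11 with HDM and 5.08 ± 7.18 with PBS (SD, n = 2). Their HDM to PBS ratio of 2.42 rests on few reads. Leukocyte (14 genes) and erythroid (5 genes) markers summed in WT HDM to 1188 and 2229, and to 229 and 424, with ranges of 358 to 769 and 3.32 to 36.4 over the 6 other libraries. Most of the leukocyte sum was Lyz2, a lysozyme gene that is also in the alveolar type 2 list, and the 13 other leukocyte markers summed to 75.6 and 371 in WT HDM and 1.53 to 21.1 elsewhere. At 0 reads in WT HDM were 3 and 1 leukocyte markers and no erythroid marker, and elsewhere 9 to 12 and 0 to 4. The part of these in the collagen and laminin differences was not tested.

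Epithelial lists also differed, in both directions. The 15 alveolar type 2 markers summed to 16035 and 22075 in WT HDM against 5850 to 8220 elsewhere, and the 9 alveolar type 1 markers to 807 and 783 against 420 to 587. The 6 pan-epithelial markers summed to 1230 and 1310 in WT HDM against 1489 to 1691 elsewhere, and the 9 ciliated markers to 1619 and 1787 against 2494 to 2951. Club and secretory markers (7 genes) summed to 5233 and 6808 in WT HDM and 5236 to 14765 elsewhere. Markers of basal cells (6 genes), which anchor to the airway basement membrane, were low, at 2.90 to 50.9, with 1 to 5 of them at 0 in each library, and the 5 mesothelial markers summed to 18.3 to 67.3. The part of the epithelial lists in the differences of the chains was likewise not tested.

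The genes with the profile most like that of Col1a1 over the 8 libraries, by Pearson correlation of log2 values, were Lrp5 (r = 0.98), Il33 (0.97), Col6a2 (0.97), Ctnnb1 (0.96), Mgp (0.95), Ace (0.95), Sgpp2 (0.95), Hmcn1 (0.94), Nfic (0.94) and Bcam (0.94). For Col4a1 they were Eif4g1, Lcn2, Vim, Etnk1 and Kctd12 (each 0.97) and Lamc1, Mcam, Tmem100, Uba2 and Lrch1 (each 0.96). All points share the libraries and their depths. The 2 WT HDM libraries set much of the spread of Col1a1, while Col4a1 was lowest in the first cKO PBS library, the shallowest. Over the 6 libraries without WT HDM, r with Col1a1 was 0.62 to 0.97 for its 10 genes, and r with Col4a1 was 0.93 to 0.98. Those values are no separate check, since the genes were picked over libraries that include these 6. Of the chains, Col6a2 was thus on the list of Col1a1 and Lamc1 on that of Col4a1.

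Below the tested level lay 35 chains, of which 10 had 0 reads in every library: Col2a1, Col6a4, Col6a6, Col9a1, Col9a3, Col10a1, Col11a1, Col11a2, Col19a1 and Col25a1. Of these Col2a1, Col9a1, Col9a3, Col10a1, Col11a1 and Col11a2 are known mainly from cartilage. Of the 25 with reads, 18 had their highest group mean in WT HDM, and 3 (Col6a3, Col7a1 and Lamc3) had reads in both WT HDM libraries and in no PBS library. Of all 7389 genes with reads and a mean under 10, 37.5% had their highest group mean in WT HDM and 3.97% had reads in both WT HDM libraries and no PBS library. The first WT HDM library was the deepest of the 8 and the first cKO PBS library the shallowest. Col15a1, a basement membrane zone collagen, read 2.30 and 0 normalized counts in WT PBS, 12.4 and 9.02 in WT HDM, 0 in both cKO PBS libraries and 0 and 4.98 in cKO HDM. Col7a1, the anchoring fibril collagen, read 3.91 and 2.58 in WT HDM and 0 elsewhere. Col6a5 read 15.7 and 1.29 in WT HDM and 0 to 2.18 elsewhere. Exceptions to this order included Col26a1, highest in cKO HDM at 4.35 and 14.1, and Col28a1, whose 16.3 in the first cKO PBS library stood beside at most 0.765 elsewhere. Col18a1, the collagen from which endostatin is cut, had 5.22 in the first WT HDM library, 8.18 in the second WT PBS library and 0 in the other 6. Col16a1, a FACIT collagen, ranged from 0 to 6.37.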

How the data were processed

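Each of the 8 libraries was RNA-seq of cells sorted from mouse lung. The deposited table gives a signal per gene and library, a read count scaled by the authors. HOMER, DESeq2 and the mm10 build are named, with no versions, per the submitters' processing notes. Not given in the sources used here are aligner, annotation and strand setting.

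All values were whole multiples of 1 read (100% within 0.01 reads), which recovered the reads. Values were tested as log2(value + 1), which understates changes of low genes, with limma 3.58.1 in R 4.3.3 (1 mean per group, all 8 libraries, eBayes with a trend, two-sided) on the 7512 genes with a mean of at least 10, and adjusted by Benjamini-Hochberg over all of them. An adjusted p under 0.05 passed. The fit was also run on simulated reads with the same spread setting for all genes and no library that stands apart. These data differ in that, and no result rests on that run. As alternatives, edgeR 4.0.16 (its quasi-likelihood test) and DESeq2 1.42.0 were run on the recovered reads. Errors after ± are SE for log2 differences and SD over 2 libraries for levels. Clopper-Pearson intervals and floors reflect counting error alone and take each read as a separate molecule, which PCR copies would not be. A multiple of a floor takes the mean of the higher group as it stands, without its own counting error or spread, so it is no lower bound.

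Chains that passed and the 6 most abundant fibrillar and basement membrane chains were given per library. Of each pathway list the genes that passed were given per library, and 1 or 2 abundant genes by their differences alone. Col5a1, Col5a2, Col6a1, Col6a2, Col6a3, Col14a1, Col15a1, Lamb3, Lamc3, Col8a2 and Loxl1 were given in more detail after their values were seen, as was the likeness to Col8a2. The members, classes and lists were chosen with earlier results of these data known. The values of 1 tested chain are not reported here on its own, and it stays in the counts and sums. Gene lengths and positions are from GENCODE M21 and promoter windows from RefSeq GRCm38.p6. Alternatives were the pseudocount, the filter, the scaling, variance settings, a replicate block, each library left out, the 2 libraries that stand apart left out together (chosen after seeing the data), fits of only the groups compared, and both count tools.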

Additional observations from a re-analysis of the deposited data

How the results depend on the processing

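Under the alternatives tried, the 7 calls of chains (4 with HDM in WT, 3 between genotypes under HDM) never changed direction: of 147 values 113 still passed and 34 did not. With HDM in WT, the number of chains passing went from 4 to 2 with a pseudocount of 0.2 or no filter on low values, to 7 with a pseudocount of 5 or quantile normalization, to 9 in a fit of only the groups compared and to 8 by DESeq2 on recovered reads. It was 1 to 7 with one library left out: 1 without WT HDM 1, WT HDM 2 or WT PBS 1, 2 without cKO HDM 1, cKO HDM 2 or WT PBS 2, and 7 without either cKO PBS library. Between genotypes under HDM, 3 became 2 with a pseudocount of 0.2 or no filter, 7 with a pseudocount of 5, only the groups compared or DESeq2, and 5 with a minimum mean of 50, quantile normalization or library weights. With one library left out it was 0 to 6: 0 without WT HDM 2 or cKO HDM 2, 1 without WT HDM 1 or cKO HDM 1, and 6 without either cKO PBS library. For the interaction, 0 became 1 (Col3a1) with a pseudocount of 5, a minimum mean of 50, quantile normalization, edgeR, DESeq2 or both libraries that stand apart left out, and ranged from 0 to 3 with one library left out. For HDM in cKO and for genotype under PBS it ranged from 0 to 3, in each case 3 without cKO PBS 2. A lone library of a group is assumed to vary like the other groups. With HDM in WT, DESeq2 passed 113 of all genes as higher and 20 as lower, against 38 and 1 by limma. Between genotypes under HDM it passed 29 as higher and 101 as lower, against 4 and 39 by limma. For the interaction DESeq2 passed 1 as higher and 24 as lower, and edgeR 7 as lower, against 2 by limma. All-gene counts of the other settings are not given here, so their counts of chains have no share beside them. The cause of these shifts was not tested.

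A replicate block kept the counts at 4, 0, 3, 0 and 0, and replicate numbers did not pair the libraries (correlations of replicate differences -0.02 to 0.02). Without the most abundant member of each class, the fibrillar share was 11.5% in WT PBS, 54.2% in WT HDM, 3.60% in cKO PBS and 11.7% in cKO HDM. The lowest depth, 232556 reads, limits chains near the floor most.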

Other observations

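Col8a2, the most abundant chain per kb outside WT HDM, had its closest profiles in Zdhhc1 (r = 0.97 over the 8 libraries), Gm973 (0.97), Inpp5e, Pik3ip1 and Zfp410 (each 0.96), Spint2 (0.95), and Nab2, Plxnb2, Gm19935 and Akr1c14 (each 0.94). Spint2 encodes an epithelial protease inhibitor. Over the 6 libraries without WT HDM the correlation with Col8a2 ran from -0.16 for Zfp410 to 0.84 for Inpp5e, with 0.07 for Pik3ip1 and Akr1c14, so for several of these genes the likeness was carried by the 2 WT HDM libraries. Divided by endothelial marker counts, the summed Col4a1 and Col4a2 counts were 0.268 and 0.318 in WT PBS, 0.212 and 0.223 in WT HDM, 0.176 and 0.190 in cKO PBS and 0.406 and 0.305 in cKO HDM.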
